A study of Mus musculus with 38 samples.

Results

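The livers described here came from 5 male mice of the group called WT - Cre Control at 3 months, each hybridised on 2 arrays, so 10 of the 38 arrays and 5 of the 20 mice of the study. They were chosen by their labels and compared with the normal liver RNA that shared every array with them. Each mouse carried 1 Alb-Cre transgene (Alb-Cre +/-), which expresses Cre recombinase from the albumin promoter and so in hepatocytes, with no floxed allele, on a B6129 background. Each received 1 intraperitoneal dose of diethylnitrosamine (DEN), 10 micrograms per gram of body weight, at 14 days of age. The labels put these mice at 12 weeks of age, and 3 months after the dose would be later than that, so how long after the dose the livers were taken is open. The reference was a single pool of total RNA from the livers of 5 wild-type B6/129 males, aged 12 weeks, with no treatment and no Cre listed. The carcinogen, the Cre transgene and the source of the RNA therefore differed together between liver and pool and cannot be told apart. The pool is also 1 sample, and its own spread enters no test. Where other groups are drawn in, they are the 3-month knockouts (Alb-Cre +/-; Met Fl/Fl, on 129SV/C57BL6), the 5-month controls of the same genotype as the livers described here, and the 5-month knockouts. These mice received the same dose and were hybridised against the same pool. Their labels give 12 weeks of age for the 3-month knockouts and 20 weeks for both 5-month groups, while the pool was from mice of 12 weeks.

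DEN is a nitrosamine that reaches the liver as a procarcinogen. Cytochromes P450 of the hepatocyte, Cyp2e1 foremost, turn it into an ethylating agent that leaves DNA adducts. In infant male mice the hepatocytes are still dividing at that age, adducts are fixed as mutations, and foci, adenomas and carcinomas follow over the next months. A liver some weeks after the dose is thus known as initiated tissue that has largely recovered from acute damage and whose mass is still mostly not tumour.

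The arrays carried long oligonucleotides for 36607 probes, and the deposited values are log2 ratios of the 2 dyes. Per the labels, each liver was labelled once with Cy5 and once with Cy3. The value of a mouse was the mean of its Cy5 array and of its Cy3 array with the sign turned, after each array was centred on its median, so that an effect tied to the dye cancels. Values above 0 are read as higher in the DEN-treated liver. That reading assumes that the authors divided Cy5 by Cy3, likely but stated nowhere in the sources used here, and the opposite order would exchange higher and lower throughout. The dye effect was large. With the signs left as deposited, the 2 arrays of each mouse correlated across probes at r = 0.35 to 0.50, and the spread (SD) across probes was 0.89 to 1.00 for the dye part and 0.51 to 0.70 for the liver part. The mouse values of different mice correlated at 0.25 to 0.43 across probes, which are not independent replicates. The arrays of mice 1, 2 and 3 fall in another run of experiment numbers than those of mice 4 and 5.

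A gene was called different when limma's moderated test of the 5 mouse values against 0 gave a Benjamini-Hochberg adjusted p under 0.05 over all 36607 probes and the means of both dye orientations lay on the same side of 0. Of 17501 genes, each read from the probe listed first for it, 2195 (12.5%) were called. Of these, 1333 (7.62% of all genes) were higher than the pool and 862 (4.93%) were lower. Over 2-fold differences were found for 116 genes called higher and 138 called lower, and the median absolute log2 ratio of the called genes was 0.65. On probes, 4265 (11.7%) were called, 54.5% of them higher. Without centring on the array median the count was 4916, and 42.9% of them were higher, so the balance of higher and lower calls rests on the centring. Requiring both orientations removed 1514 of the 5779 probes past the adjusted p. The number of calls depended on the mice: it was 1556, 924, 1697, 2163 and 4060 probes without mouse 1, 2, 3, 4 and 5 in turn. Of the 123 genes named below that were called with all 5 mice, 85 kept the call without mouse 2 and between 101 and 116 without 1 of the others, and all 123 kept their direction in each of these fits. The calls of Mmp9, Bbc3, Pdgfrb, Slco1a1, Me1 and Rps29 held in 1 or 2 of the 5 fits and that of Ccng1 in none. Of 40 called genes named below that had further probes, 24 had each of them called in the same direction, and 16 had 1 or more that was not, of which Gsta3, Dnajb9, Ccn1, Ccng1 and Mcm7 had a probe on the other side of 0. In the sentences below a value is the mean log2 ratio over 5 mice, with its standard error (SE), and p-values come from the limma fit. Counts of called members of a list are to be read beside the 7.62% higher and 4.93% lower of all genes.

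**Figure D1:**
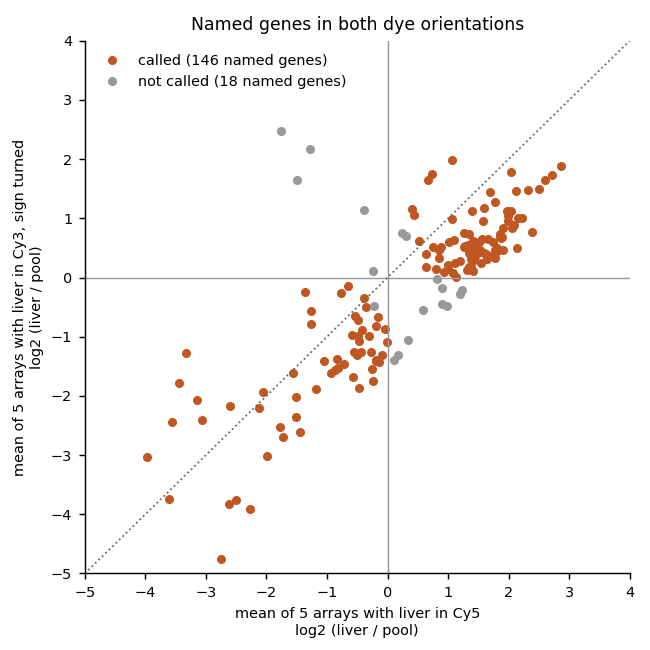
Mean log2 ratio of liver over pool in the 5 arrays with liver in Cy5 (horizontal axis) and in the 5 arrays with liver in Cy3 after turning the sign (vertical axis), for the genes picked by the naming rule or described in the text. The 146 called genes (orange) lie at the lower left and upper right, as the call requires, and most of the higher ones lie below the dotted line of equality, with a larger ratio in Cy5. The 18 genes not called (grey) include 3 whose orientation means lie far apart on opposite sides.

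The serum amyloid A genes, secreted acute phase proteins that the liver makes under inflammatory cytokines, were among the lowest of all genes against the normal pool. Saa1 measured -4.07, -4.05, -3.39, -3.82 and -3.42 in mice 1 to 5, a mean of -3.75 (SE 0.14, 13.4-fold lower, adjusted p = 0.000807). All 5 livers lay more than 3 log2 units below the pool, and all 10 arrays lay on that side. Saa2 measured -3.59, -3.78, -2.77, -3.18 and -2.14, with a mean of -3.09 (SE 0.24, 8.52-fold lower, adjusted p = 0.00487), and Saa3, made also by macrophages and adipocytes, measured -3.81, -3.84, -2.57, -3.46 and -2.47, with a mean of -3.23 (SE 0.24, 9.37-fold lower, adjusted p = 0.00487). Saa1 and Saa2 are near-identical in sequence, so a long oligonucleotide may read both of them. Apcs, the serum amyloid P component, measured -1.90, -2.07, -2.02, -2.59 and -2.18, a mean of -2.15 (SE 0.13, 4.44-fold lower, adjusted p = 0.00353). Lcn2, the iron-siderophore binding protein lipocalin 2 that hepatocytes and neutrophils release in inflammation, measured -2.63, -2.50, -2.14, -2.01 and -1.81, with a mean of -2.22 (SE 0.15, 4.65-fold lower, adjusted p = 0.00487). Every liver lay below the pool in each of these genes.

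Other secreted proteins differed in both directions. Of 61 measured acute phase, complement and coagulation genes, 8 were lower, 4 were higher, and the list median was 0.10, beside 0.05 over all genes. Hamp, which encodes the iron hormone hepcidin, was the highest of them, and its relative Hamp2, outside that list, was higher too. Hamp measured 1.41, 1.89, 1.40, 1.06 and 1.68, a mean of 1.49 (SE 0.14, 2.8-fold higher, adjusted p = 0.00591). Hamp2 measured 1.50, 4.27, 1.24, 1.50 and 2.62, a mean of 2.23 (SE 0.44, 4.68-fold higher, adjusted p = 0.0224). Mouse 2 was the highest for both, and Hamp2 lost its call in 2 of the 5 fits that left out a mouse. Markers of neutrophils had a median of -0.25 over 16 measured genes, with 3 lower and none higher (per-mouse medians from -0.40 to -0.13). The share lower was 18.8%, beside 4.93% of all genes. Lcn2 belongs to that list, as does Ltf, the granule protein lactoferrin, at -1.09 (SE 0.16, 2.13-fold lower, adjusted p = 0.0125). Mmp9, the matrix protease stored in neutrophil granules, had a log2 ratio of -0.70 (adjusted p = 0.0178). Fewer cells of a type and less RNA per cell cannot be told apart in these bulk samples.

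Both liver metallothioneins, small cysteine-rich proteins that bind zinc and copper and whose genes respond to metals and glucocorticoids, were far below the pool. Mt1 measured -2.16, -2.86, -2.31, -2.38 and -2.78, with a mean of -2.50 (SE 0.14, 5.65-fold lower, adjusted p = 0.00259). Mt2 measured -3.23, -3.68, -2.87, -2.76 and -3.12, with a mean of -3.13 (SE 0.15, 8.77-fold lower, adjusted p = 0.00194). The 5 livers spanned less than 1 log2 unit for either gene. Of 27 measured genes of metal handling, Mt1 and Mt2 included, 3 were lower and 5 higher, Hamp and Hamp2 among the latter, with a median of 0.16. The shares were 11.1% lower and 18.5% higher, beside 4.93% and 7.62% of all genes. Mt1 and Mt2 are neighbours on chromosome 8, and both RefSeq promoters (build GRCm38.p6, 250 bases before to 50 after the annotated start) hold the core of the metal response element, the site of the zinc-sensing factor Mtf1. The core was searched as TGCGCNC and TGCACNC on both strands. It occurred 3 times in Mt1 (chr8:94178839-94179138, forward strand) and 4 times in Mt2 (chr8:94172368-94172667, forward strand). In bases before the gene's start, the matches begin at 23, -2 and -20 in Mt1 and at 223, 128, 50 and -4 in Mt2. Negative values lie after the start. Of all 32851 promoters in the table, 25.7% hold a match, 1.97% at least 3 and 0.517% at least 4. In the metal handling list, 12 of 21 promoters hold the core, and 4 of 7 among its called genes. The promoters are shown because the 2 genes moved together, with the matches in capitals.
Mt1: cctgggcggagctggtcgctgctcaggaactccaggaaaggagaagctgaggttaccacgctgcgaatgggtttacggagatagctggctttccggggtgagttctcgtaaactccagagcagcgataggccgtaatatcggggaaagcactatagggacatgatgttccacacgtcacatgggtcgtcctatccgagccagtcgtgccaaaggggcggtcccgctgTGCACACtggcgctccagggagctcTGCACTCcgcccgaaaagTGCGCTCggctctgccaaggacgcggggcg
Mt2: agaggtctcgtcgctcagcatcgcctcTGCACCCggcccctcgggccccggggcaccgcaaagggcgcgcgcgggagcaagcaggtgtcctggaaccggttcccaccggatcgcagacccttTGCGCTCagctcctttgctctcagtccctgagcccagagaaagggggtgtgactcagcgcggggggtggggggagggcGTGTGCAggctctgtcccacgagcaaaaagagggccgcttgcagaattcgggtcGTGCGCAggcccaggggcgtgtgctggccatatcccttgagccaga

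Cxcl1 and some immediate early genes, which respond within minutes or hours to cytokines and growth factors, were also lower. Cxcl1, a chemokine that draws neutrophils, measured -2.57, -2.44, -2.73, -1.10 and -1.32, with a mean of -2.03 (SE 0.28, 4.08-fold lower, adjusted p = 0.0108). Mice 1 to 3, of the first run of arrays, were lower than mice 4 and 5, of the other run, and all 5 were more than 1 log2 unit below the pool. Its promoter (chr5:90890995-90891294, forward strand) holds 2 matches to the NF-kB motif GGGNNTTTCC on either strand, which start 89 and 71 bases before the gene's start, and 0.0304% of all promoters hold it at least 2 times. It is shown because Cxcl1 was the lowest of 32 measured chemokine and receptor genes. Of these, 2 were higher and 2 lower (6.25% each), near the 7.62% and 4.93% of all genes.
Cxcl1: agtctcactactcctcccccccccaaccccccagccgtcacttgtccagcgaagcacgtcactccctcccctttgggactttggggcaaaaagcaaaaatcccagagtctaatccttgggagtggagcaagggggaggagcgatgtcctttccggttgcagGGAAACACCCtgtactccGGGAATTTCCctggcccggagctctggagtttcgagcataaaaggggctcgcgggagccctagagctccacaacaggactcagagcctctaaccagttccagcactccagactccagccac

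Of 31 immediate early genes measured, 4 were lower (12.9%, beside 4.93% of all genes) and none higher (beside 7.62%), with a median of -0.09. Egr1, a zinc finger factor induced by growth factors, measured -1.42, -1.17, -0.85, -1.22 and -1.46, a mean of -1.23 (SE 0.12, 2.34-fold lower, adjusted p = 0.00633). Ccn1, a matrix protein induced by serum, had a log2 ratio of -0.78 (adjusted p = 0.011) on its first probe, and its second probe was near 0 at 0.07. Socs3, the feedback inhibitor of the interleukin-6 receptor pathway, was called at -0.51 (adjusted p = 0.0432) and lost the call without any 1 of the mice. Outside this list, Tgfbr1, the type I receptor of TGF-beta and a member of the collagen and matrix list, had -1.03 (SE 0.18, adjusted p = 0.0172). Its further probes gave -0.73 and -0.42, the latter not called.

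**Figure D2:**
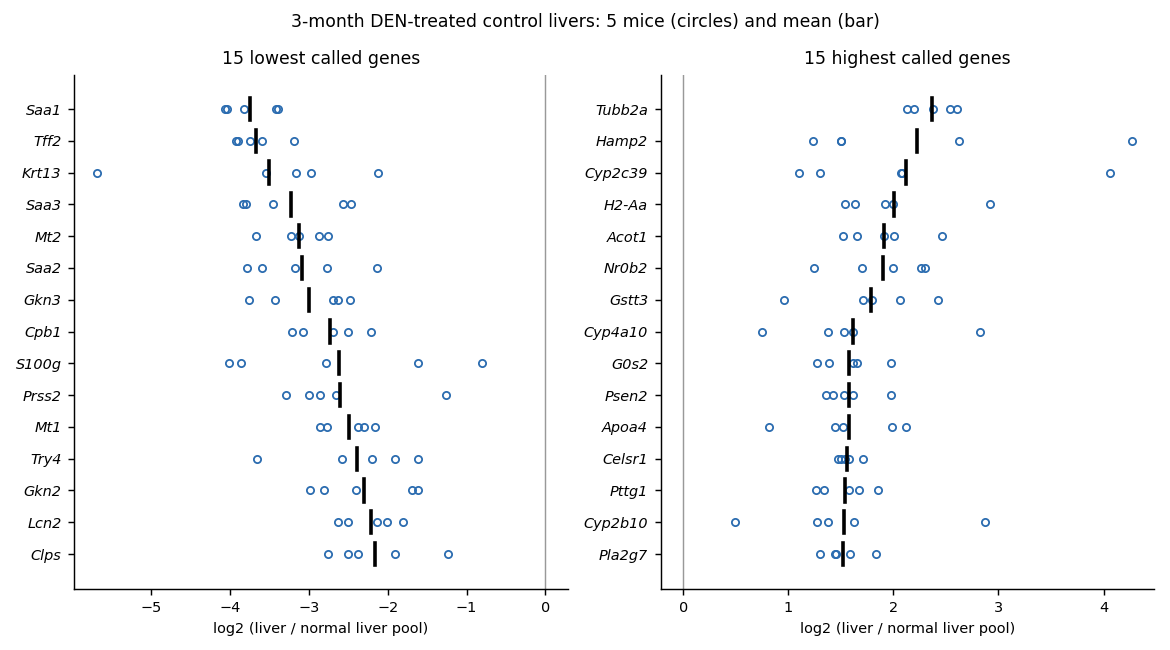
Log2 ratio of liver over normal liver pool in each of the 5 mice (circles) with the mean (bar), for the 15 lowest and the 15 highest called genes on which all 5 mice lay on the same side. Saa1 and Tff2 sit tightly below -3, Krt13 and S100g spread over more than 3 log2 units, and among the higher genes Tubb2a and Celsr1 are tight while Hamp2, Cyp2c39 and Cyp2b10 each have 1 mouse far above the rest.

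A second group of very low genes belongs to organs next to the liver. Of 15 measured markers of the exocrine pancreas, 11 were lower and none higher, and the list median was -1.13, with per-mouse medians from -1.76 to -0.98. Cpb1, the digestive carboxypeptidase B1, measured -2.21, -2.50, -3.07, -3.22 and -2.69, a mean of -2.74 (SE 0.17, 6.68-fold lower, adjusted p = 0.00371). Prss2, an anionic trypsinogen, measured -1.26, -3.00, -2.65, -3.29 and -2.86, a mean of -2.61 (SE 0.29, 6.12-fold lower, adjusted p = 0.00739), with mouse 1 well above the other 4. Try4, a trypsinogen of the same family, had -2.39 (SE 0.29), Ctrl, a chymotrypsin-like protease, -1.99 (SE 0.16), and Clps, the cofactor of pancreatic lipase, -2.16 (SE 0.22), each with all 10 arrays below 0. Trypsinogens share sequence, so their oligonucleotides may not separate them.

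Stomach genes behaved alike. Tff2, the trefoil peptide of gastric mucus, measured -3.60, -3.74, -3.19, -3.90 and -3.93, a mean of -3.67 (SE 0.14, 12.7-fold lower, adjusted p = 0.000807), with the Cy5 and Cy3 orientations at -3.61 and -3.74. Gkn3 and Gkn2, gastrokines of the stomach lining, had log2 ratios of -3.00 (SE 0.21) and -2.30 (SE 0.23). Krt13, a keratin of stratified epithelium such as the mouse forestomach, measured -5.70, -3.55, -3.17, -2.98 and -2.13, a mean of -3.50 (SE 0.47, 11.3-fold lower, adjusted p = 0.0103), and -1.12 on its second probe. S100g, an intestinal and renal calcium-binding protein, had -2.62 (SE 0.49), from -0.81 in mouse 2 to -4.02 in mouse 4, and kept its call in 2 of the 5 fits that left out a mouse. Stomach genes were named by their rank among all genes, not from a list fixed for that organ. The other groups share the pool, and their values stood as follows. The pancreas list had a median of -1.06 in the 3-month knockouts (per-mouse medians from -1.81 to -0.43), -1.26 in the 5-month controls (-1.51 to -0.94) and -1.26 in the 5-month knockouts (-1.35 to -1.20). Tff2 was -3.75, -4.23 and -4.01 in these groups in that order, and Cpb1 -3.30, -2.27 and -3.27. Under the opposite order of the dyes, these livers would hold more of these RNAs than the pool. What gave the pool and the livers different levels of them was not tested.

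Some of the enzymes that oxidise or conjugate foreign compounds were higher, while most members of each list did not pass the test. Among cytochromes P450 of families 1 to 3, 13 of 33 measured were higher and none lower, with a median of 0.57 (per-mouse medians from 0.42 to 0.74). Cyp2c39, a retinoic acid hydroxylase, measured 4.06, 2.08, 1.30, 2.07 and 1.10, a mean of 2.12 (SE 0.41, 4.35-fold higher, adjusted p = 0.0213), with mouse 1 about 2 log2 units above the next. Cyp2b10, the classic target of the xenobiotic receptor CAR, measured 0.50, 1.63, 1.38, 2.87 and 1.27, a mean of 1.53 (SE 0.31, 2.88-fold higher, adjusted p = 0.0233), and its other probes gave 1.85 and 1.95. Cyp3a25 was tight, at 0.89, 0.99, 0.83, 1.02 and 1.16, a mean of 0.98 (SE 0.10, 1.97-fold higher, adjusted p = 0.00662). Cyp2c23, an epoxygenase of arachidonic acid, had 1.01 (SE 0.27, adjusted p = 0.0466) on its first probe and 0.58, not called, on its second, and kept its call in 1 of 5 fits that left out a mouse. Cyp2e1, the main DEN-activating enzyme, was not called at 0.23 (SE 0.09, adjusted p = 0.139), and its Cy5 and Cy3 means pointed apart at 0.89 and -0.44. Cyp1a2, a pericentral enzyme that also metabolises aromatic amines, was not called either, at 0.51 (SE 0.19, adjusted p = 0.106).

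Conjugation followed. Of 38 conjugating enzymes and carboxylesterases, 14 were higher and none lower, with a median of 0.42. Ugt1a9, a glucuronosyltransferase of drug clearance, had 1.27 (SE 0.19, 2.41-fold higher, adjusted p = 0.0127), and its further probes gave 1.97 and 0.61. Ugt3a1, a sugar transferase of the same superfamily, had 1.04 (SE 0.14), and Ces2a, a carboxylesterase, 0.84 (SE 0.10). Aldh3a2, a dehydrogenase of fatty aldehydes, had 1.10 (SE 0.15). Of 43 glutathione and antioxidant enzymes, 18 were higher and 1 lower, with a median of 0.41. Gstt3, a theta-class glutathione transferase, measured 2.43, 2.06, 1.79, 1.71 and 0.96, a mean of 1.79 (SE 0.21, 3.46-fold higher, adjusted p = 0.00824). Gstm3, of the mu class, had 1.29 (SE 0.17, 2.44-fold higher, adjusted p = 0.0103). Gsta1, of the alpha class, which detoxifies lipid peroxidation products, had 1.15 (SE 0.13). Gsta3 of the same class had 1.17 (SE 0.12) on its first probe, but its second probe was called in the other direction at -0.95, and the probes of this family may read each other's transcripts. Ephx1, the microsomal epoxide hydrolase, measured 1.23, 1.02, 1.21, 1.39 and 0.77, a mean of 1.12 (SE 0.12, 2.18-fold higher, adjusted p = 0.00715).

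Some lipid and bile acid genes under nuclear receptors were also higher, while most members of these lists did not pass the test. Of 41 genes of fatty acid oxidation or under PPAR-alpha, 13 were higher and 1 lower, with a median of 0.40. Acot1, an acyl-CoA thioesterase that is a sensitive PPAR-alpha target, measured 2.46, 1.65, 1.52, 1.91 and 2.01, a mean of 1.91 (SE 0.15, 3.76-fold higher, adjusted p = 0.00487). Cyp4a10, a fatty acid omega-hydroxylase, measured 2.83, 1.53, 1.61, 1.38 and 0.75, a mean of 1.62 (SE 0.27, 3.07-fold higher, adjusted p = 0.0155). Acaa1b, the peroxisomal thiolase, had 1.32 (SE 0.13), Pex11a, which makes peroxisomes divide, 1.15 (SE 0.11), and Cd36, a fatty acid transporter, 1.03 (SE 0.14). G0s2, an inhibitor of the lipase ATGL, measured 1.39, 1.65, 1.28, 1.97 and 1.62, a mean of 1.58 (SE 0.13, 2.99-fold higher, adjusted p = 0.00487). Apoa4, an apolipoprotein that rises with fat load, had 1.58 (SE 0.20, 2.98-fold higher, adjusted p = 0.00942), and its second probe 1.69. The feeding state of the mice is not given in the sources used here.

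In the bile acid list 7 of 28 genes were higher and 1 was lower, with a median of 0.24. Nr0b2, the repressor SHP induced by the bile acid receptor FXR, measured 1.70, 2.26, 2.30, 1.99 and 1.24, a mean of 1.90 (SE 0.17, 3.73-fold higher, adjusted p = 0.00574). Slco1a4 and Slco1a1, importers of bile acids and organic anions, had 1.26 (SE 0.14) and 0.76 (SE 0.12), and 0.38 and 0.55 on their second probes. The lower member was Cyp46a1, the cholesterol 24-hydroxylase, at -1.10 (SE 0.16). Fatty acid and cholesterol synthesis split, with 5 of 38 genes higher, 2 lower and a median of -0.02. Its higher members included both INSIG proteins, which hold the cholesterol sensor SCAP in the endoplasmic reticulum: Insig2 had 1.30 (SE 0.11, 2.47-fold higher, adjusted p = 0.00511) and Insig1 0.89 (SE 0.10, 1.85-fold higher, adjusted p = 0.00836). The further probes gave 1.03, 0.71 and 1.29 for Insig2, with the second of these not called, and 0.59 and 0.62 for Insig1, neither called. Elovl3, a fatty acid elongase that is strongly rhythmic in mouse liver, had 1.45 (SE 0.12, 2.73-fold higher, adjusted p = 0.00511), and Me1, the malic enzyme, 0.74 (SE 0.15).

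Amino acid and urea metabolism had 14 of 50 genes higher and 1 lower, with a median of 0.56 and per-mouse medians from 0.47 to 0.62. Cth, which makes cysteine from cystathionine, had 1.01 (SE 0.10), Oat, ornithine aminotransferase, 1.00 (SE 0.13), and Tdo2, which opens the tryptophan ring, 0.98 (SE 0.09). The lower one was Phgdh, the first enzyme of serine synthesis, at -0.92 (SE 0.14, adjusted p = 0.0132). Of genes typical of hepatocytes near the portal vein, 8 of 22 were higher and 2 lower. Of those near the central vein that depend on Wnt signalling, 5 of 29 were higher and 1 was lower. Glul, glutamine synthetase and a marker of tumours with active beta-catenin, measured 1.06, 1.12, 1.08, 0.53 and 0.54, a mean of 0.86 (SE 0.14, 1.82-fold higher, adjusted p = 0.0134). Lect2, a secreted Wnt target, had 0.86 (SE 0.12) and Aldh1a1, retinal dehydrogenase, 0.77 (SE 0.12).

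**Figure D3:**
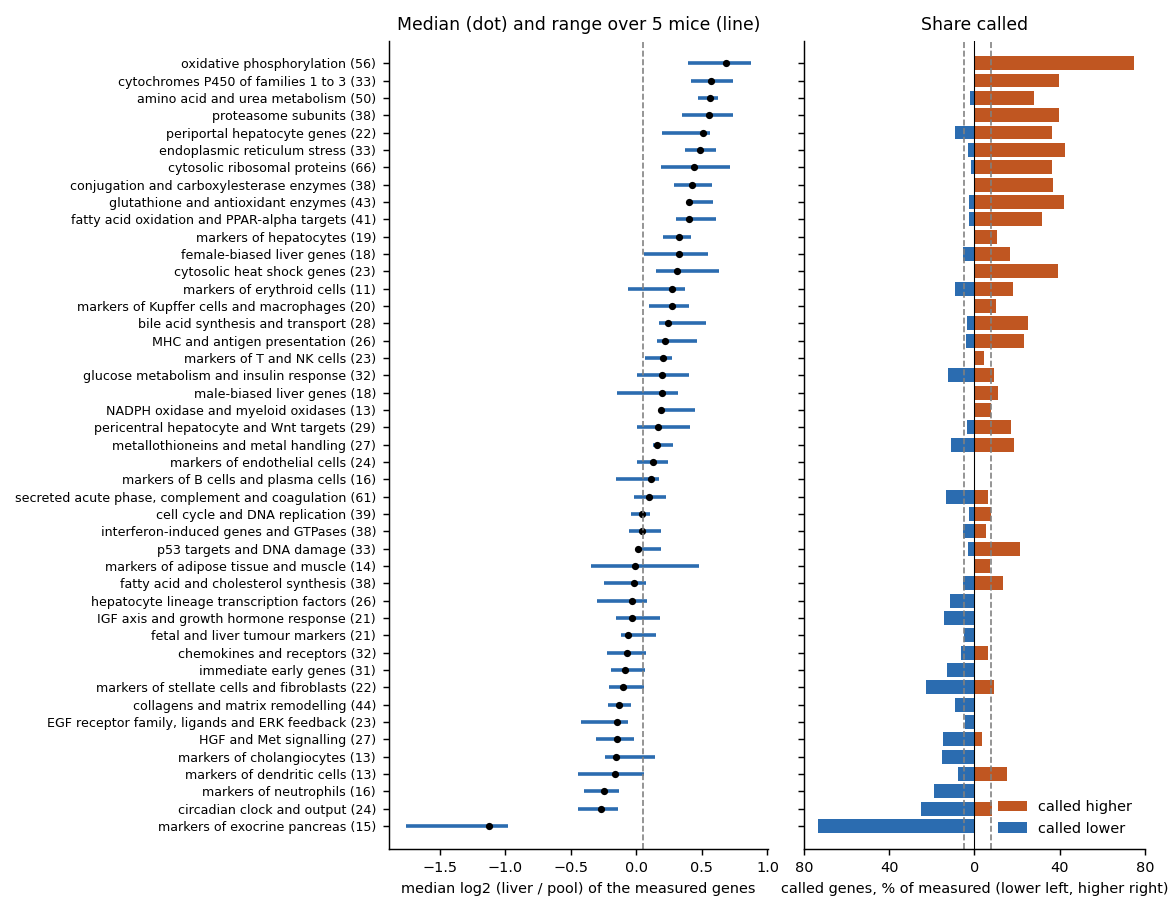
Left, the median log2 ratio of liver over pool of each gene list (dot) and the range of that median over the 5 mice (line), with the number of measured genes in brackets and the median of all genes as a dashed line. Right, the percentage of measured genes called higher (orange, to the right) and lower (blue, to the left), with dashed lines at the 7.62% and 4.93% of all genes. Oxidative phosphorylation has the largest share called higher, and exocrine pancreas markers stand alone on the low side.

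Several genes of protein folding in the endoplasmic reticulum were higher, and most of the list did not pass the test. Of 33 measured, 14 were higher and 1 lower, with a median of 0.49 and per-mouse medians from 0.37 to 0.61. Hspa5, the chaperone BiP that gates the unfolded protein response, measured 1.09, 1.20, 1.26, 1.38 and 1.42, a mean of 1.27 (SE 0.10, 2.41-fold higher, adjusted p = 0.00487). Manf, a secreted folding factor, measured 1.38, 1.38, 1.45, 1.38 and 1.78, a mean of 1.48 (SE 0.11, 2.78-fold higher, adjusted p = 0.00487). Creld2, a folding factor resident there, measured 0.88, 1.12, 1.96, 1.56 and 1.30, a mean of 1.36 (SE 0.17, 2.57-fold higher, adjusted p = 0.00932). Dnajb9, a co-chaperone of BiP, had 1.27 (SE 0.12, 2.42-fold higher, adjusted p = 0.00611) on its first probe, while its second probe was not called at -0.51. Hsp90b1, the chaperone Grp94, measured 0.61, 0.67, 0.53, 0.76 and 0.29, a mean of 0.57 (SE 0.11, 1.49-fold higher, adjusted p = 0.0191), and kept its call in 1 of the 5 fits that left out a mouse. In every one of these genes the Cy5 orientation gave the larger ratio, for Hspa5 1.86 against 0.68 and for Hsp90b1 1.13 against 0.02.

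The ER stress response element, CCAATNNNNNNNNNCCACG on either strand, is the site through which ATF6 and NF-Y act. It was found in 39 (0.119%) of the 32851 RefSeq promoters of GRCm38.p6. Among the genes of the folding list, 28 had a promoter in the table and 9 of these held it. Of the 14 called genes with a promoter, 6 did: Creld2, Dnajc3, Hsp90b1, Hspa5, Pdia6 and Syvn1. Of the promoters shown, with the element in capitals, Hspa5 (chr2:34771840-34772139, forward strand) and Creld2 (chr15:88819396-88819695, forward strand) hold 1 copy and Hsp90b1 (chr10:86705395-86705694, reverse strand) holds 2.
Hspa5: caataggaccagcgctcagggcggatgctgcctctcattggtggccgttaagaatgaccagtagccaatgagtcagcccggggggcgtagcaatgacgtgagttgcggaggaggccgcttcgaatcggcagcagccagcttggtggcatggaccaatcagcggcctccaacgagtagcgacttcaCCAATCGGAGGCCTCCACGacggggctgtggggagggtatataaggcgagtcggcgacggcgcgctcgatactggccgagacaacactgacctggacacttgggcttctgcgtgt
Creld2: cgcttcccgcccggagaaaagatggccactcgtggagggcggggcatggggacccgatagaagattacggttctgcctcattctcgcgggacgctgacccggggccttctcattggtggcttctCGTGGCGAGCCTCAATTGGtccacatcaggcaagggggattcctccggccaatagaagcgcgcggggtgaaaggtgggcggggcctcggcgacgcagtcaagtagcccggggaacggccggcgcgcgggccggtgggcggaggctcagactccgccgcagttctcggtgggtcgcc
Hsp90b1: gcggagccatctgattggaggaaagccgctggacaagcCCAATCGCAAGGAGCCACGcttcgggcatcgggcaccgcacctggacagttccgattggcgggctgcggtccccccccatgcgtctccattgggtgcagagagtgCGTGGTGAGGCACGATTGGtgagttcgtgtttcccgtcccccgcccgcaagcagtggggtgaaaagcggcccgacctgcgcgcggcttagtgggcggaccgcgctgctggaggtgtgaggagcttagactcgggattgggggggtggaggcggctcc

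Cytosolic heat shock genes included 9 higher and none lower of 23 measured, with a median of 0.31. Hspa8, the constitutive Hsc70, measured 0.90, 1.32, 1.17, 1.04 and 1.18, a mean of 1.12 (SE 0.10, 2.17-fold higher, adjusted p = 0.00574), with all 3 probes alike (the others at 1.14 and 1.18). Hsph1, a nucleotide exchange factor of Hsp70, had 1.00 (SE 0.14), and Hspe1, the mitochondrial co-chaperonin Hsp10, 0.88 (SE 0.15). Hsp90aa1, the inducible Hsp90, had 0.93 (SE 0.12), and its other probes gave 0.02 and 0.98. A heat shock element was also searched in promoters, on either strand. It was found in 4 of 20 promoters of this list, in 3 of 7 of its called genes and in 0.603% of all promoters.

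Many genes of large housekeeping complexes were moderately higher. Of 56 genes of oxidative phosphorylation, 42 were higher and none lower, the largest share of any list, with a median of 0.69 (per-mouse medians from 0.39 to 0.87). Cox6a1, a cytochrome oxidase subunit, measured 1.30, 1.12, 1.01, 0.74 and 0.96, a mean of 1.03 (SE 0.11, 2.04-fold higher, adjusted p = 0.00739). Uqcrb of complex III had 1.02 (SE 0.13), Cox7c of complex IV 0.93 (SE 0.16) and Ndufa1 of complex I 0.92 (SE 0.11). Of 38 proteasome subunits, 15 were higher and none lower (median 0.55), led by Psma1 at 0.91 (SE 0.14) and Psmd14, the deubiquitinating lid subunit, at 0.91 (SE 0.12). The ATPase ring subunits Psmc4 and Psmc2 had 0.89 (SE 0.11) and 0.88 (SE 0.11). The second probes of Psma1 and Psmc4 were not called, at 0.60 and 0.43. Of 66 cytosolic ribosomal proteins, 24 were higher and 1 lower (median 0.44). Rps28 measured 1.33, 1.36, 1.12, 0.52 and 0.94, a mean of 1.05 (SE 0.15, 2.08-fold higher, adjusted p = 0.0111), Rps26 had 0.98, Rpl38 0.94 and Rps29 0.93. Mouse 4 was the lowest in Cox6a1, Uqcrb, Cox7c, Ndufa1, Rps28, Rps26, Rpl38, Rps29, Psma1, Psmd14, Psmc4 and Psmc2. Ribosomal protein genes have many processed pseudogenes that an oligonucleotide may also read.

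These higher lists carried more of the dye effect than genes at large. The dye part, the mean of both arrays before turning, had a median of 0.50 in oxidative phosphorylation, 0.55 in the proteasome, 0.47 in ribosomal proteins, 0.52 in endoplasmic reticulum folding and 0.51 in cytochromes P450, beside 0.11 over all genes. After subtracting each mouse's trend of the liver part along the dye part, the list medians were 0.64, 0.48, 0.38, 0.44 and 0.49. After quantile normalisation they were 0.99, 0.79, 0.55, 0.67 and 0.73. A larger dye part was not particular to the higher lists. Among lists with medians near the pool, it was 0.61 in acute phase, complement and coagulation genes. It was 0.56 in fatty acid and cholesterol synthesis and 0.13 in cell cycle and replication genes.

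The genes of the circadian clock differed in both directions. Of 24 measured clock and output genes, 2 were higher and 6 lower, with a median of -0.27. Arntl, the activating partner Bmal1 of the clock, measured 0.89, 1.13, 1.05, 1.34 and 1.38, a mean of 1.16 (SE 0.11, 2.23-fold higher, adjusted p = 0.00622), with the Cy3 orientation larger at 1.64 against 0.67. Cry1, a late repressor of the clock, measured 0.89, 1.27, 0.89, 1.17 and 2.02, a mean of 1.25 (SE 0.18, 2.37-fold higher, adjusted p = 0.0118). Dbp, an output factor transcribed directly by Clock and Bmal1, measured -1.11, -1.67, -2.45, -1.34 and -3.11, a mean of -1.93 (SE 0.30, 3.82-fold lower, adjusted p = 0.013). Per2, an early repressor, measured -1.45, -0.98, -0.95, -0.83 and -1.44, a mean of -1.13 (SE 0.13, 2.19-fold lower, adjusted p = 0.00862), and Noct, a rhythmic phosphatase of NADPH, had -1.22 (SE 0.18). In the mouse liver Bmal1 RNA is known to be high when Dbp RNA is low. Arntl lay above the pool and Dbp below it in each of the 5 livers. The time of day at which the livers or the pool's livers were taken is not given in the sources used here.

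Genes classically tied to DNA damage, proliferation and liver tumours gave a mixed picture, with some p53 targets higher and no member of the fetal and tumour marker list higher. Of 33 p53 targets and DNA damage genes, 7 were higher and 1 lower, with a median of 0.02, beside 7.62% and 4.93% of all genes. Cdkn1a, the cell cycle inhibitor p21, measured 0.91, 1.05, 1.52, 0.72 and 0.28, a mean of 0.90 (SE 0.18, 1.86-fold higher, adjusted p = 0.0224). All 5 values were above 0 and its second probe gave 1.46, but the call held in 1 of the 5 fits that left out a mouse. Bbc3, the apoptosis inducer Puma, had 0.66 (adjusted p = 0.0163) and 0.07 on its second probe, and Ccng1, cyclin G1, 0.40 (adjusted p = 0.0474), with its further probes at 0.22, 0.27 and -0.11. None of these further probes was called. Mdm2, the p53 antagonist, was at 0.02 (SE 0.12, adjusted p = 0.922). Gadd45g, a stress sensor, was lower by 2-fold at -1.27, -1.03, -1.25, -0.81 and -0.65 (adjusted p = 0.00966).

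Of 39 cell cycle and replication genes, 3 were higher and 1 lower, and the median was 0.05, beside 0.05 over all genes. Pcna, the replication clamp, had 0.60 (SE 0.12), Plk1, a mitotic kinase, 0.59 (SE 0.10), and Mcm7, a helicase subunit, 0.52 (SE 0.09). The second probes of Plk1 and Mcm7 were not called, at 0.36 and -0.22, so that the probes of Mcm7 lay on opposite sides of 0. For the first probes, each of the 3 genes kept its call in 2 or fewer of the 5 fits that left out a mouse. Mcm3, another subunit of that helicase, was lower at -0.90 (SE 0.16). Mki67, the usual proliferation marker, measured -0.90, -0.07, 2.17, 0.48 and 0.09 and was not called (adjusted p = 0.57), nor was its second probe at -0.11. Its orientation means were -1.77 in Cy5 and 2.48 in Cy3, so the dye effect exceeded any difference. Pttg1, the securin that holds sister chromatids, was among the 15 highest genes at 1.85, 1.68, 1.58, 1.27 and 1.34, a mean of 1.54 (SE 0.12, 2.92-fold higher, adjusted p = 0.00487).

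Of 21 fetal and tumour markers, none was higher and 1 was lower, and the median was -0.07. The lower one was Lcn2, described above. Afp, alpha-fetoprotein, measured 0.68, -0.46, 0.62, 0.47 and 0.58, with mouse 2 below the other 4, and was not called at 0.38 (SE 0.19, adjusted p = 0.204). Gpc3, a proteoglycan of hepatocellular carcinoma, ran from -2.49 in mouse 3 to 2.69 in mouse 1 (mean 0.08, SE 0.64). The imprinted growth genes H19 and Igf2 were at -0.07 (SE 0.22) and -0.36 (SE 0.14), both not called. A p above the threshold does not show that these genes were equal to the pool. With an SE of 0.64, Gpc3 in particular could not be placed.

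Calls among markers of the liver's cell types varied by list, beside 7.62% higher and 4.93% lower over all genes. Of 19 hepatocyte markers, 2 were higher (10.5%) and none lower (median 0.33). Alb, albumin, was at 0.26 (SE 0.09, adjusted p = 0.108) and Apoc3, an apolipoprotein of triglyceride-rich particles, at 1.05 (SE 0.12, adjusted p = 0.00871). Ratios hold no levels, so the tissue itself could not be checked from them. Of 24 endothelial, 16 B and plasma cell, 13 cholangiocyte and 23 T and NK cell markers, the numbers higher were 0, 0, 0 and 1, and the numbers lower 0, 0, 2 and 0. Of the endothelial and B cell markers, in which limma called none, 9 and 4 had an unadjusted p under 0.05, and the methods' t-test with adjustment and agreement of orientations called 0 and 0. Among 22 stellate cell and fibroblast markers, 5 were lower (22.7%) and 2 higher (9.09%). Col3a1, fibrillar collagen III, measured -1.63, -1.33, -1.34, -0.78 and -0.81, a mean of -1.18 (SE 0.15, 2.26-fold lower, adjusted p = 0.0101). The PDGF receptors Pdgfra and Pdgfrb had -0.79 (SE 0.10) and -0.65 (SE 0.13), and Colec10, a lectin of stellate cells, was higher at 0.69 (SE 0.10). Of 44 collagen and matrix genes, 4 were lower and none higher (median -0.13).

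MHC class II genes stood out among immune genes. Of 26 genes of antigen presentation, 6 were higher and 1 lower, with a median of 0.22. H2-Aa, a class II alpha chain, measured 1.54, 1.64, 2.92, 2.00 and 1.92, a mean of 2.00 (SE 0.21, 4-fold higher, adjusted p = 0.00715). H2-Ab1, its beta partner, measured 1.23, 0.92, 2.26, 1.32 and 1.86, a mean of 1.52 (SE 0.20, 2.87-fold higher, adjusted p = 0.0103), and its other probes gave 1.47 and 1.10. Cd74, the invariant chain, measured 0.82, 0.96, 2.00, 1.40 and 0.75, a mean of 1.19 (SE 0.20, 2.27-fold higher, adjusted p = 0.015). Mouse 3 was the highest in all 3 genes. H2-M3, a class Ib molecule, was the lower member at -0.77 (SE 0.12). Beside them, Kupffer cell and macrophage markers had 2 of 20 higher and none lower (median 0.27, per-mouse medians from 0.10 to 0.40). The higher ones were Ctss, the protease that trims the invariant chain, at 0.57 (adjusted p = 0.0409), again highest in mouse 3, and Aif1, at 0.47 (adjusted p = 0.0302), whose second probe was at 0.04 and not called. Both lost their calls without any 1 of the mice. Dendritic cell markers had 2 of 13 higher and 1 lower (median -0.17), and the 2 higher ones were H2-Ab1 and Cd74 themselves. B cell markers, whose cells also carry class II, had a median of 0.11. The part of these cells in the class II values was not tested. A sequence difference between mice can change how an oligonucleotide binds, and this was not tested.

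Hormone and growth factor pathways held single genes that were lower or higher. Igfbp1, the insulin-repressed binding protein of IGF, measured -1.58, -1.42, -2.05, -1.63 and -0.96, a mean of -1.53 (SE 0.16, 2.88-fold lower, adjusted p = 0.00715). G6pc, the catalytic subunit of glucose-6-phosphatase and also repressed by insulin, measured -0.68, -0.92, -0.93, -0.68 and -0.73, a mean of -0.79 (SE 0.10, 1.73-fold lower, adjusted p = 0.00939). Ppp1r3g, a glycogen-targeting subunit of protein phosphatase, had -1.59 (SE 0.25, 3.01-fold lower, adjusted p = 0.0136), and Pfkfb3, which makes the glycolytic activator fructose-2,6-bisphosphate, -0.90 (SE 0.14). Among 32 glucose genes 4 were lower and 3 higher (median 0.19). Cish, a feedback inhibitor under growth hormone and STAT5, had -1.17 (SE 0.24, adjusted p = 0.0251), with mouse 1 near 0 at -0.15, and kept its call in 1 of 5 fits that left out a mouse. Met, the receptor of hepatocyte growth factor and the gene deleted in the study's knockouts, measured -0.85, -0.48, -0.98, -0.59 and -0.78, a mean of -0.74 (SE 0.11, 1.67-fold lower, adjusted p = 0.0125), in these mice without the floxed allele. In the 3-month knockouts Met averaged -0.29, nearer the pool than in these controls. That difference of -0.45 did not pass the threshold (adjusted p = 0.474, limma over 18 mice). At 5 months Met averaged -0.80 in the controls and -0.59 in the knockouts with both orientations. Under the assumed order of the dyes, Met was thus not lower in the knockouts at either age. Whether the probe reads the deleted part of the gene was not tested. Hgf, the ligand of Met made by stellate cells, was at -0.37 (adjusted p = 0.0485), a call lost without any 1 mouse. Spint1, an inhibitor of the protease that activates Hgf, was lower at -0.80 (SE 0.12) on its first probe, while the second, at -0.20, was not called. Cbl, the ubiquitin ligase that removes active receptors, was higher at 0.97 (SE 0.11). Of 27 genes of that pathway 4 were lower (14.8%) and 1 was higher (3.7%), beside 4.93% and 7.62% of all genes. Egfr, the epidermal growth factor receptor, passed the adjusted p at -0.65 (adjusted p = 0.0164) on its first probe, but the orientations fell on opposite sides of 0, so the gene was not called. Its second probe was called lower, at -1.09 (adjusted p = 0.00563).

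Some of the largest differences lay outside these pathways. Tubb2a, a beta-tubulin, was the highest gene of all at 2.20, 2.54, 2.61, 2.13 and 2.38, a mean of 2.37 (SE 0.11, 5.17-fold higher, adjusted p = 0.00194), and all 10 arrays lay above 0. Celsr1, an atypical cadherin of planar cell polarity, measured 1.72, 1.54, 1.48, 1.57 and 1.50, a mean of 1.56 (SE 0.09, 2.95-fold higher, adjusted p = 0.00353). Psen2, a presenilin of the gamma-secretase, had 1.58 (SE 0.12, 2.99-fold higher, adjusted p = 0.00487), and Pla2g7, the secreted hydrolase of platelet-activating factor made by macrophages, 1.52 (SE 0.11, 2.88-fold higher, adjusted p = 0.00487). On the low side, Onecut1, the hepatocyte factor HNF6, measured -0.70, -1.93, -1.62, -1.70 and -2.84, a mean of -1.76 (SE 0.28, 3.38-fold lower, adjusted p = 0.0134), and Hsd17b13, a protein of lipid droplets, measured -0.94, -1.28, -1.57, -1.17 and -1.41, a mean of -1.27 (SE 0.12, 2.41-fold lower, adjusted p = 0.00597).

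The 5-month controls have the same genotype, dose and pool, so they show which values differ between the ages. The difference between the 2 groups was tested over the 18 mice with both orientations, where the shared pool cancels. At an adjusted p under 0.05, 2517 genes (14.4%) were higher at 3 months and 723 (4.13%) lower (3240 genes, 18.5%, and 6641 probes, 18.1%, in all), and these included 1036 of the 2195 genes called against the pool. The arrays of the 2 ages were also made in separate runs, so age and run cannot be told apart. For liver in Cy5, array medians ran from -0.61 to -0.34 at 3 months and from -0.04 to 0.09 in the 5-month controls. The SD over probes, which centring leaves as it is, ran from 0.97 to 1.27 and from 0.43 to 0.80. For liver in Cy3 it ran from 0.99 to 1.28 and from 0.48 to 0.84. Scaling to a common spread was not done for this difference.

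The chaperone, respiratory, ribosomal and xenobiotic lists had medians near or below the pool in the 5-month controls. They were -0.16 for oxidative phosphorylation, -0.37 for ribosomal proteins, -0.10 for the proteasome, 0.00 for endoplasmic reticulum folding, -0.03 for cytochromes P450 and -0.04 for glutathione enzymes. In the 3 5-month knockouts with both orientations the medians, in that order, were 0.12, 0.01, 0.17, 0.14, 0.54 and 0.30. Between the controls, 49 of 56, 48 of 66, 28 of 38, 19 of 33, 12 of 33 and 24 of 43 genes of these lists were higher at 3 than at 5 months and none was lower. Over all genes the shares were 14.4% higher and 4.13% lower. Hspa5 was 0.31, -0.02, 0.86, -0.33 and -0.12 in 5-month controls 1 to 5, a difference of 1.13 (adjusted p = 0.00178). Tubb2a was below the pool at 5 months, with -0.47, -0.71, -0.87, -0.82 and -0.67, a difference of 3.08 (adjusted p = 0.000385), and the groups did not overlap. H2-Aa was -0.57, 0.16, 1.43, -0.71 and -0.43 at 5 months, a difference of 2.02 (adjusted p = 0.0025). Dbp was above the pool in all 5 of the older controls, at 0.55, 0.62, 0.23, 0.26 and 0.78, a difference of -2.42 (adjusted p = 0.00156).

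The metallothioneins differed by -2.33 for Mt1 and -3.00 for Mt2 (adjusted p = 0.00927 and 0.00551). The older controls spread widely, with Mt2 at 2.49, 1.51, -1.22, -1.15 and -2.28, 2 livers above the pool and 3 below it. Saa1 was 0.34, -1.44, -3.68, -3.71 and -4.09 in the same order of mice and Lcn2 4.20, 0.33, -1.37, -1.25 and -2.53, and 5-month control 1 was the highest in all of Saa1, Lcn2, Mt1 and Mt2. The differences in Saa1 (-1.23, adjusted p = 0.167) and Lcn2 (-2.09, adjusted p = 0.0905) did not pass the threshold.

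Other genes did not pass the test between the ages, which does not show that they were equal. Acot1 was 2.09 at 5 months (difference -0.18, adjusted p = 0.734), Cyp4a10 2.37 (difference -0.75, adjusted p = 0.276), G0s2 1.81 (difference -0.22, adjusted p = 0.532) and Cd36 1.56 (difference -0.54, adjusted p = 0.101). The list of fatty acid oxidation genes had a median of 0.37 there, beside 0.40 at 3 months, and 5 of 41 were higher and 2 lower at 3 months. Cxcl1 was -1.94 (difference -0.09), Igfbp1 -1.63 (difference 0.10), Met -0.80 (difference 0.07) and Col3a1 -1.09 (difference -0.08), none past the threshold.

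**Figure D4:**
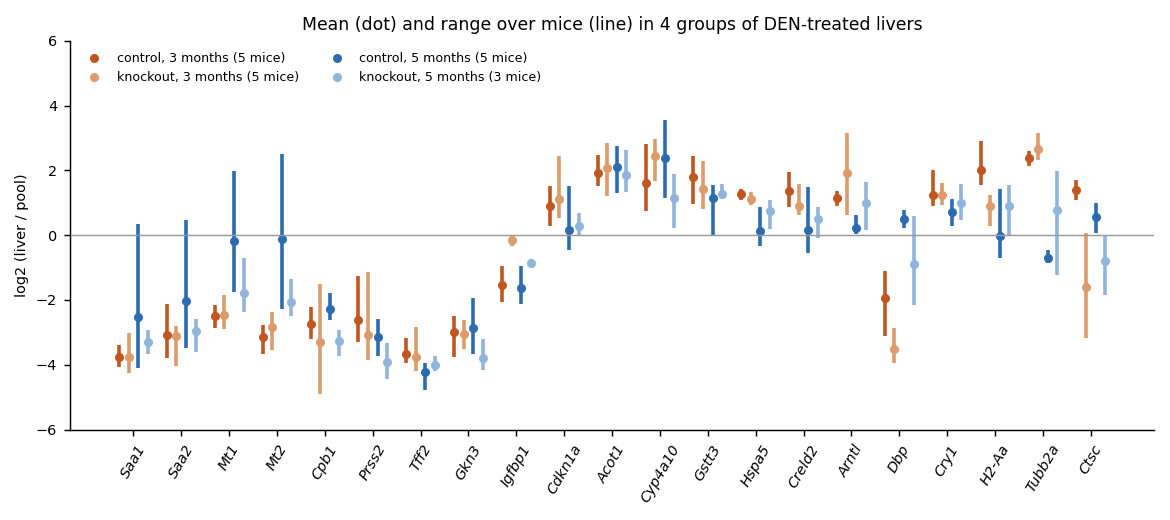
Log2 ratio of liver over the shared pool for 21 genes, as the mean (dot) and range over mice (line), in 3-month controls, 3-month knockouts and 5-month controls (5 mice each) and in 5-month knockouts (the 3 mice with both orientations). Saa, pancreas and stomach genes lie below 0 in most or all mice of every group, Hspa5, H2-Aa and Tubb2a are higher at 3 months than in 5-month controls, and Igfbp1 and Ctsc separate the 3-month controls from the knockouts of the same age.

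Against knockouts of the same age, few genes differed. Over the same 18 mice, 6 genes (0.0343%) were higher in the controls and 6 (0.0343%) lower at an adjusted p under 0.05, 12 genes in all (0.0686%) and 27 probes (0.0738%), while 3273 probes had an unadjusted p under 0.05. Of the 2195 genes called against the pool, 3 were among them. Igfbp1 was near the pool in the knockouts, at -0.03, -0.13, -0.04, -0.34 and -0.17 in knockouts 1 to 5, a difference of -1.39 (adjusted p = 0.019), and the groups did not overlap. Ctsc, the protease that activates granule enzymes, measured 1.69, 1.28, 1.53, 1.32 and 1.08 in the controls, a mean of 1.38 (SE 0.12, 2.6-fold higher, adjusted p = 0.00511), and -3.17, 0.08, -2.21, -2.07 and -0.67 in the knockouts, a difference of 2.99 (adjusted p = 0.019). Its second probe gave 0.48 in the controls. The Igfbp1 difference missed the threshold without control 3 or without knockout 1, and that of Ctsc without control 3, with adjusted p up to 0.0633 and 0.0585. Both calls were also lost with only these 10 mice in the limma fit, where no probe was called (adjusted p = 0.244 for Igfbp1 and 0.256 for Ctsc), and with the replicate number as a block (adjusted p = 0.064 and 0.0558). Genotype and strain label differ together between these groups. Hspa5 was 1.12 in the knockouts, Mt2 -2.84, Saa1 -3.76, Acot1 2.06, Tubb2a 2.65 and Arntl 1.93, each measured against the pool they share with the controls.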

How the data were processed

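Labelled RNA of each liver was hybridised with a pool of normal liver RNA on 2-colour long-oligonucleotide arrays. Per the series' design text the authors left out invalid features and normalised each array to the 50th percentile of its signal in mAdb. The deposited values are log2 ratios, 1 per probe and array, without a missing value. Base 2 was read from the steps between low values, while the sources used here do not give the background handling, the signal levels or the order of the dyes. The number of arrays limits the precision.

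Here each array was centred on its median, Cy3 arrays were turned, and both arrays of a mouse were averaged. The 5 mouse values were tested against 0 with limma 3.58.1 in R 4.3.3 (lmFit, eBayes, 2-sided), on simulated data first. Differences between groups were fitted over the 18 mice with both orientations. Same-numbered mice of different groups did not deviate together (correlations from -0.204 to 0.108 with 5-month controls and from -0.0715 to 0.114 with 3-month knockouts), so no pairing was used. Nothing in the labels ties mice to litters. Of 36607 probes, 26926 had 1 gene symbol in GEO's platform annotation, 203 several and 9478 none, and symbols were updated by Entrez identifier for 26774. A gene was read from its probe listed first, and 5886 of 17501 genes had more than 1 probe.

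The gene lists and the members described were chosen with earlier results of these data known. Genes were named as the 15 highest and 15 lowest called genes with all 5 mice on the same side, the 4 called members farthest from 0 of each list (or, where under 2 were called, the 2 with the smallest p) and a short set of liver and tumour genes. Apcs, Hsp90b1 and Per2 were named after their values were seen, as were the probes and promoters beyond a gene's first. Alternatives were the values without centring, a common spread (MAD), quantile normalisation, 10 or 18 mice in the fit, the run as a covariate, each run alone, robust eBayes, the methods' t-test, no agreement of orientations, agreement of all 10 arrays, the mean over all probes of a gene, and each mouse left out. Removing the dye trend and leaving out dim probes were added after seeing the data.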

Additional observations from a re-analysis of the deposited data

Results flagged for a closer look

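Of the 133 genes named, 62 differed between 3-month and 5-month controls in limma's test of the difference itself at an adjusted p under 0.05. Of all genes, 18.5% differed, 14.4% higher and 4.13% lower at 3 months. Many named genes were picked for their distance from the pool in the same 3-month values. Their share can therefore not be set against that of all genes. The values below are differences in log2 ratio, 3 months minus 5 months. At 3 months 55 of the 62 were higher and 7 lower. Age and array run cannot be told apart in any of them, and 52 of the 62 passed the threshold whichever of the 10 mice was left out.

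Among secreted, metabolic and xenobiotic genes the differences were 1.99 for Hamp2, 1.65 for Elovl3, 1.64 for Gstm3, 1.55 for Hamp, 1.47 for Insig2, 1.42 for Gsta3, 1.32 for Nr0b2, 1.23 for Gsta1, 1.16 for Cyp2b10, 1.09 for Ugt1a9, 1.00 for Cyp3a25, 0.99 for Cth, 0.97 for Insig1, 0.89 for Ces2a, 0.86 for Apoc3, 0.78 for Tdo2, 0.70 for Lect2, 0.60 for Glul, 0.59 for Slco1a1 and 0.47 for Alb. Among chaperones they were 1.44 for Dnajb9, 1.32 for Manf, 1.32 for Hsp90aa1, 1.20 for Hspa8, 1.20 for Creld2, 1.13 for Hspa5, 1.11 for Hsph1, 0.87 for Hspe1 and 0.85 for Hsp90b1. Among respiratory, ribosomal and proteasome genes they were 1.58 for Cox7c, 1.11 for Psmd14, 1.10 for Psma1, 1.07 for Rps28, 1.06 for Ndufa1, 1.05 for Uqcrb, 0.98 for Rps29, 0.95 for Rps26, 0.90 for Cox6a1, 0.89 for Rpl38, 0.87 for Psmc2 and 0.77 for Psmc4. Among the remaining higher genes they were 3.08 for Tubb2a, 2.02 for H2-Aa, 1.65 for H2-Ab1, 1.26 for Ctss, 1.23 for Celsr1, 1.20 for Psen2, 1.20 for Pttg1, 1.17 for Cd74, 1.00 for Cbl, 0.86 for Bbc3, 0.83 for Pla2g7, 0.65 for Pcna, 0.56 for Mdm2 and 0.55 for Plk1. The genes lower at 3 months differed by -3.00 for Mt2, -2.42 for Dbp, -2.33 for Mt1, -1.75 for Ppp1r3g, -1.02 for Phgdh, -0.86 for Per2 and -0.84 for Socs3.

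The differences that missed the threshold in at least 1 of the 10 fits with a mouse left out were those of Socs3, Hamp2, Cyp2b10, Ugt1a9, Slco1a1, Glul, Creld2, Per2, Mdm2 and Plk1. Each of them lost its call without at least 1 of the 5-month controls. Plk1 kept its call in 1 and Socs3 in 2 of the 10 fits.

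Against 3-month knockouts, 2 named genes differed by limma's test of the difference, Igfbp1 by -1.39 and Ctsc by 2.99 (adjusted p = 0.019 for both over 18 mice). With only the 10 mice of these groups in the fit the adjusted p was 0.244 and 0.256, and with the replicate block 0.064 and 0.0558, so both calls were lost.

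In 5 named genes 1 of the 5 mice stood apart by Dixon's criterion at the 95% level, which chance meets in about 1 of 20 groups. Mouse 5 was high for Manf at 1.78, with the others from 1.38 to 1.45. Mouse 2 was low for Afp at -0.46, with the others from 0.47 to 0.68. Mouse 3 was high for Ctss at 1.14, with the others from 0.32 to 0.54. Mouse 4 was high for Colec10 at 0.92, with the others from 0.61 to 0.66. Mouse 5 was low for Cyp1a2 at -0.32, with the others from 0.60 to 0.83.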

How the results depend on the processing

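The count of 4265 probes called against the pool stayed between 3719 and 5779 with the run as a covariate, with robust eBayes, without centring, with a common spread, after quantile normalisation, without dim probes, with the dye trend removed, with the 10 mice of 3 months in the fit and without the rule on orientations. It was 7005 with 18 mice in the fit, 971 by the methods' t-test unadjusted (of 1263 at p under 0.001), 2507 by the methods' t-test with adjustment, and 1481 where all 10 arrays had to agree. In either run alone, with 3 and 2 mice, limma called 0 probes, while 11317 and 5269 had an unadjusted p under 0.05. Leaving out a mouse gave 924 to 4060. With fewer mice in a fit the test has fewer degrees of freedom.

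For 3-month against 5-month controls, the main count was 6641 and leaving out a mouse gave 3828 to 8004, the lowest without 5-month control 4. With the replicate number as a block it was 6092. For 3-month controls against knockouts, the main count was 27, and leaving out a mouse gave 5 to 61. It was 2 with the replicate block, and 0 with only these 10 mice in the fit (limma; 2187 had an unadjusted p under 0.05). In each comparison 1 of 5 mice correlated best with its own number.

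Over the named genes, each of the 6 alternatives tested on the first probe with all 5 mice kept direction and side of the threshold for at least 126 of 133 genes. The mean over all probes of a gene, which has no test, moved by more than the SD between mice in 16 of 43 genes with more than 1 probe, among them Gsta3 (to 0.109), Mcm7 (to 0.151), Ccng1 (to 0.196), Ccn1 (to -0.354), Dnajb9 (to 0.381) and Egfr (to -0.868). Called genes kept their direction in all of these. 4 uncalled genes changed sign near 0. Mdm2 was -0.058 with the dye trend removed, -0.025 after quantile normalisation, -0.016 with a common spread and -0.056 as deposited. Gpc3 was -0.14 with the dye trend removed and -0.012 after quantile normalisation. With a mouse left out, Mdm2 ran from -0.046 to 0.099, Mki67 from -0.099 to 0.668, H19 from -0.226 to 0.098 and Gpc3 from -0.57 to 0.723. List medians moved by less than the spread between mice in 428 of 450 fits. The cause of these changes was not tested. Signal over background is not in the values, so a depth limit could be set only through low whole-number ratios.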
